A study of Limonium bicolor with 5 samples.

Results

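Leaves of Limonium bicolor with a differentiated epidermis (stage D) were compared with leaves in which stomata had differentiated (stage C), across all 18327 genes of the deposited table and 2 of its 5 libraries. Limonium bicolor is a halophyte that secretes salt through glands in the leaf epidermis. The leaves were first true leaves grown in tissue culture, with no treatment or genotype named in the labels other than the stage. About 1000 leaves were pooled for stage D, with 16367754 reads behind its column, and about 2000 for stage C, with 14286009 reads. Of the other 3 stages, A was the undifferentiated leaf, B had differentiated salt glands and E was the mature leaf. They were used only to place the values, stage B most of all, with 16556653 reads from about 4000 leaves.

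Epidermal cells of a young Arabidopsis leaf either enter the stomatal lineage, in which a series of transcription factors leads to a pair of guard cells, or become pavement cells and trichomes. Cell division in the leaf then gives way to expansion, the outer wall is sealed with cutin and wax, and the mesophyll below builds its photosynthetic apparatus. Limonium adds multicellular salt glands to this plan, which are epidermal structures. The libraries were made from whole leaves, so the RNA came from every tissue of the leaf, and fewer cells of a type and less RNA per cell cannot be told apart.

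Values are RPM, the reads of a gene scaled to the depth of its library. They are not divided by gene length, so only the same gene or the same sum of genes is compared between stages. A gene is called higher or lower in stage D when log2((D + 1)/(C + 1)) is at least 1 in size and the higher stage reaches 5 RPM. With 1 library per stage there is no replicate check and no test. The range in brackets after a fold is its exact 95% interval from the reads, which covers counting error only. Each gene carries an Arabidopsis locus and its description in the table, symbols were added from general knowledge, and all roles given below are known from Arabidopsis or other plants, not from Limonium. Reads of near-identical genes may have been divided between loci in the authors' counting, so single members of large families are uncertain.

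By this rule 3166 of 18165 testable genes (17.4%) were higher in stage D and 3546 (19.5%) were lower. Over all of them the log2 difference had a median of -0.06. The calls followed the order of the loci. The genes of the nuclear chromosomes were divided into 10 equal groups in locus order. In the first, AT1G01020 to AT1G24095, 6.15% were higher and 40.3% were lower in stage D, with a median log2 difference of -0.82. In the last group, AT5G42680 to AT5G67630, 28.0% were higher and 9.32% were lower, and the median was 0.44. Against stage B the medians of the 10 groups stayed between -0.35 and -0.24. Genes that shared their description with no other gene showed the same order, with medians of -0.62 in their first group and 0.35 in their last.

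**Figure D1:**
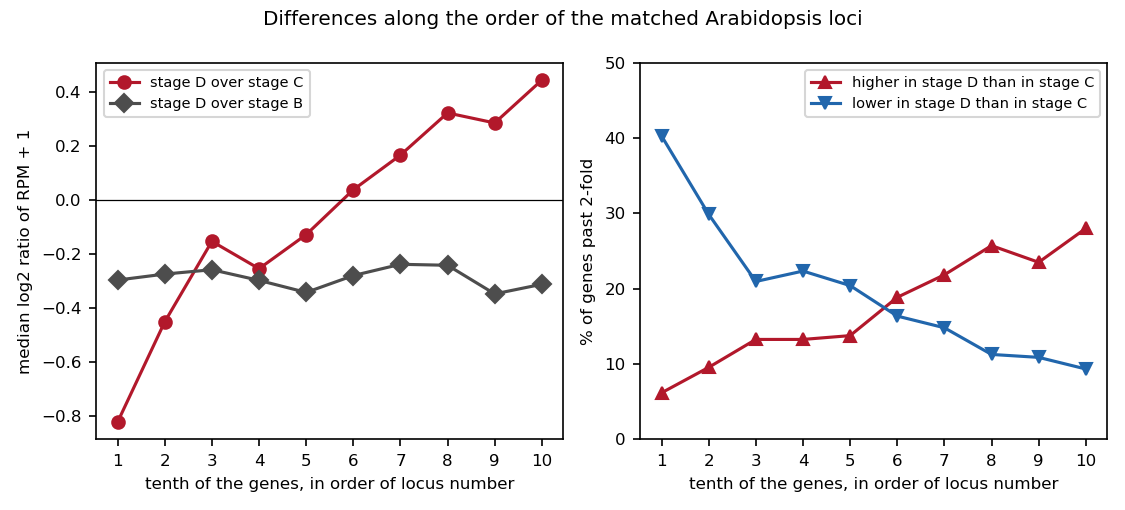
Left, median log2((D + 1)/(C + 1)) and log2((D + 1)/(B + 1)) of the genes in 10 groups of loci in chromosome order; right, the percentage of genes in each group higher or lower in stage D than in stage C. The stage C comparison climbs from -0.82 to 0.44 along the loci, while the stage B comparison stays between -0.35 and -0.24.

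The same tilt appeared inside families of genes that share a description. In 2100 families of 2 to 20 genes, the median share of a family's reads on its lowest-numbered locus was 28.8% in stage D and 48.0% in stage C. The other stages lay at 28.5% in A, 28.6% in B and 28.8% in E. In 863 families of exactly 2 genes this share was 52.1% in stage D and 72.8% in stage C. The share was higher in stage C than in stage D in 1587 of the 2100 families, whereas stage B exceeded stage D in 1019. Why the reads of stage C lay on low-numbered loci was not tested.

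**Figure D2:**
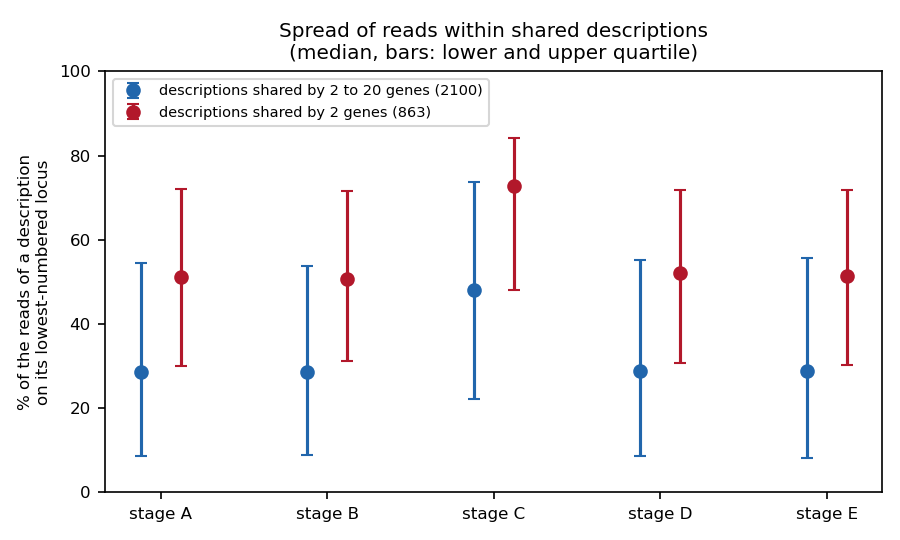
Median percentage of a description's reads on its lowest-numbered locus in each of the 5 stages, for families of 2 to 20 genes and of exactly 2 genes, with bars from the lower to the upper quartile of families. Stage C stands at 48.0% and 72.8%, against 28.8% and 52.1% in stage D.

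Sums over the genes of a description, which do not depend on how reads fell between its members, were therefore used as a check. Many single genes below are given without the sum of their description, and for those the check is not shown. Of 5745 sums, 761 (13.2%) were higher and 860 (15%) lower in stage D. Among families of 2 or more genes, 259 of 2315 sums (11.2%) were higher and 335 (14.5%) lower. Most single-gene calls did not carry over to their family. Of 2664 genes called higher in such families, 637 had a sum called higher, 1982 a sum not called and 45 a sum called lower. Of 3021 genes called lower, 778 had a sum called lower, 2148 a sum not called and 95 a sum called higher. The sums do not remove the tilt between descriptions. Among families of 2 or more genes whose lowest-numbered locus lies on chromosome 1, 9.33% of 1425 sums were higher and 14.7% lower, while on chromosome 4 19.7% of 122 were higher and 9.02% lower. In 589 families at least 1 member was higher and at least 1 lower, and 496 of those sums were not called.

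**Figure D3:**
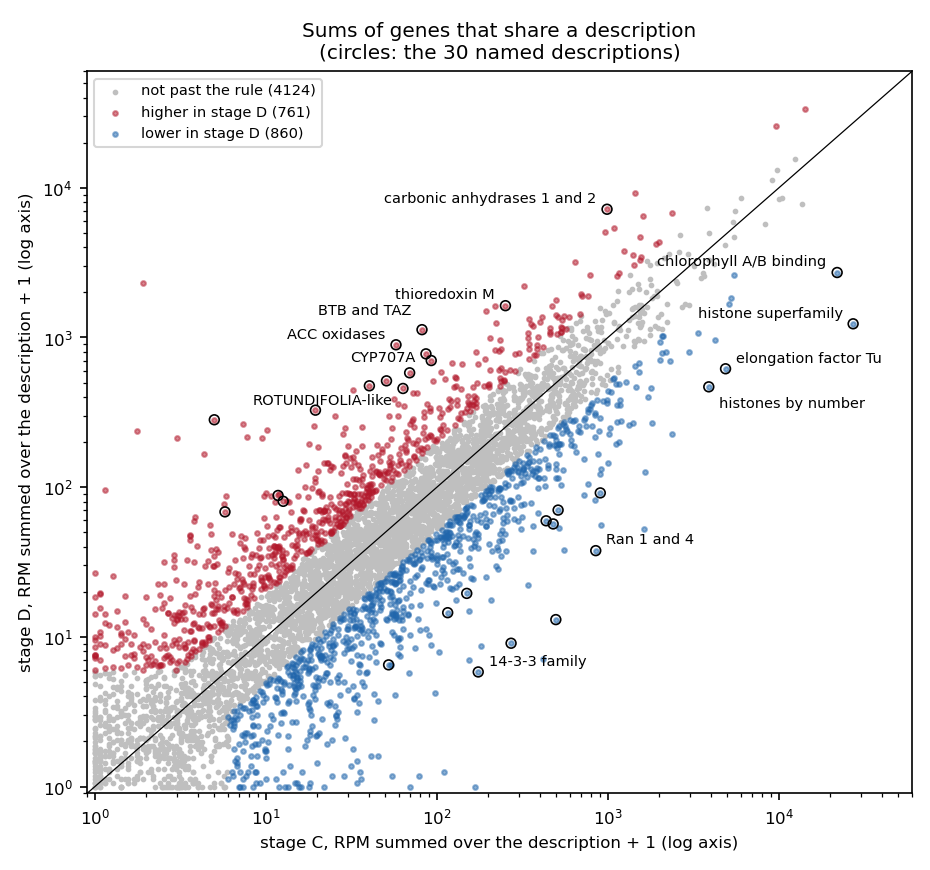
Summed RPM + 1 of each description in stage D (vertical, log scale) against stage C (horizontal, log scale). Of 5745 sums, 761 lie on the higher side of the 2-fold rule, 860 on the lower side and 4124 are not called; circles mark the 30 named descriptions with the largest changes.

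Gene lists by function were described in the same way, by the count of members called, the median member and the summed level, beside the 17.4% higher and 19.5% lower among all genes. Of 48 lists, the summed level of 6 was at least 2-fold lower in stage D and that of 6 was at least 2-fold higher. The lower ones were core histones, DNA replication, microtubules and kinesins, ribosomal proteins, the proteasome with polyubiquitin, and the stomatal lineage. The higher ones were guard cell function, photosystem cores, the Calvin cycle, plastid genome loci, sugar transport, and a short list of mesophyll and meristem markers. Stage B, used as a second reference, shares the stage D library with the first, so values against both are set side by side.

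**Figure D4:**
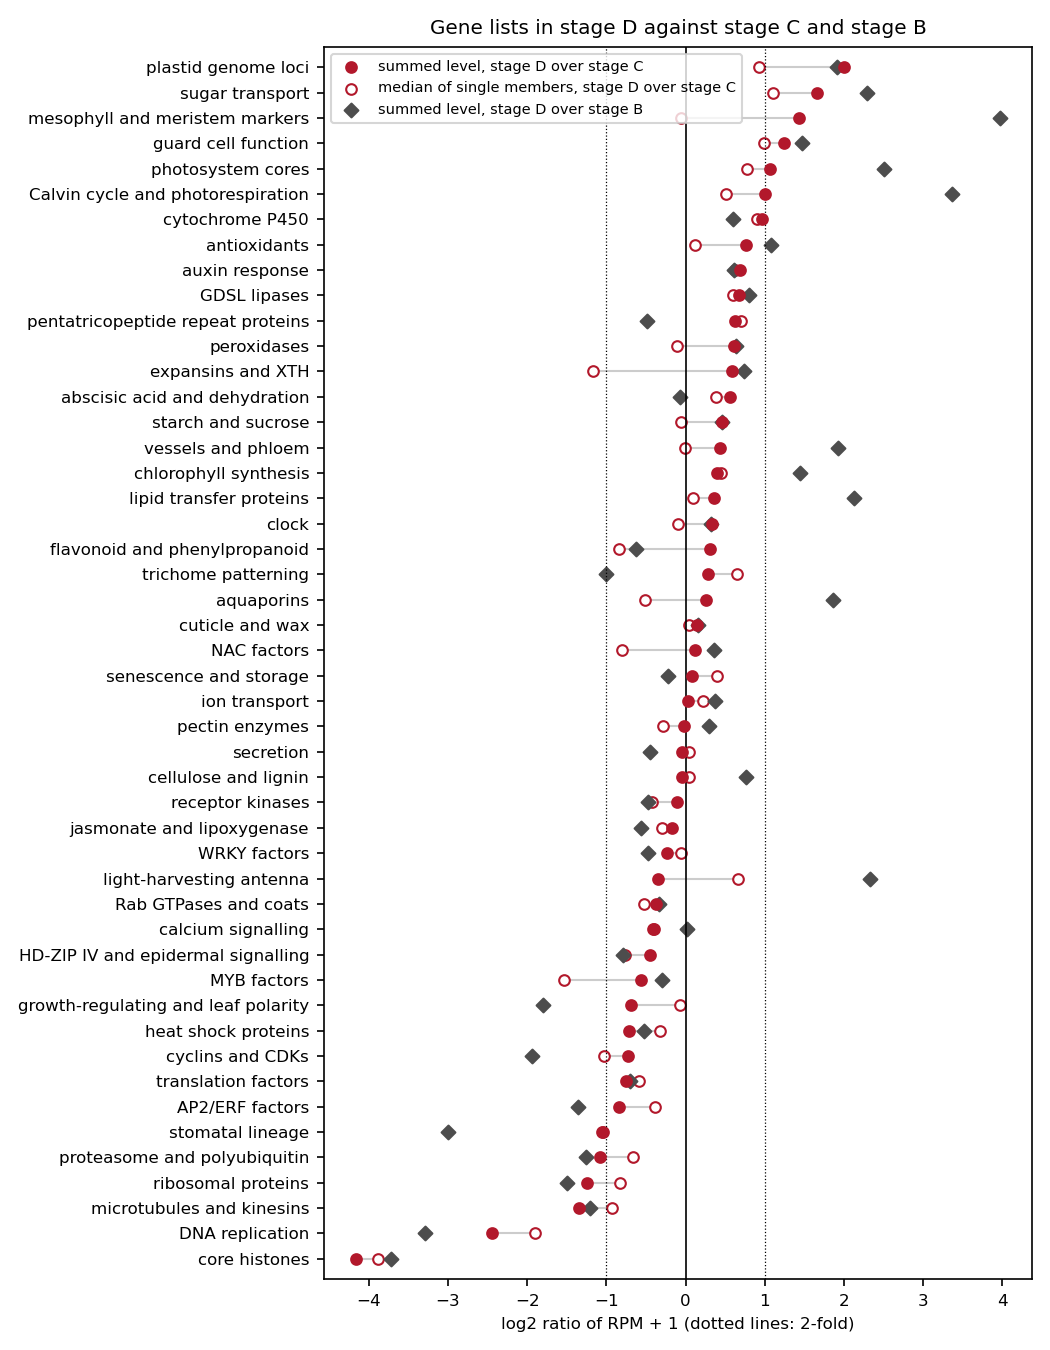
Log2 difference of stage D from its reference for 48 gene lists: filled points, summed level against stage C; open points, median member against stage C; diamonds, summed level against stage B. Dotted lines mark the 2-fold rule; core histones lie farthest to the left at a 17.9-fold lower sum.

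**Figure D5:**
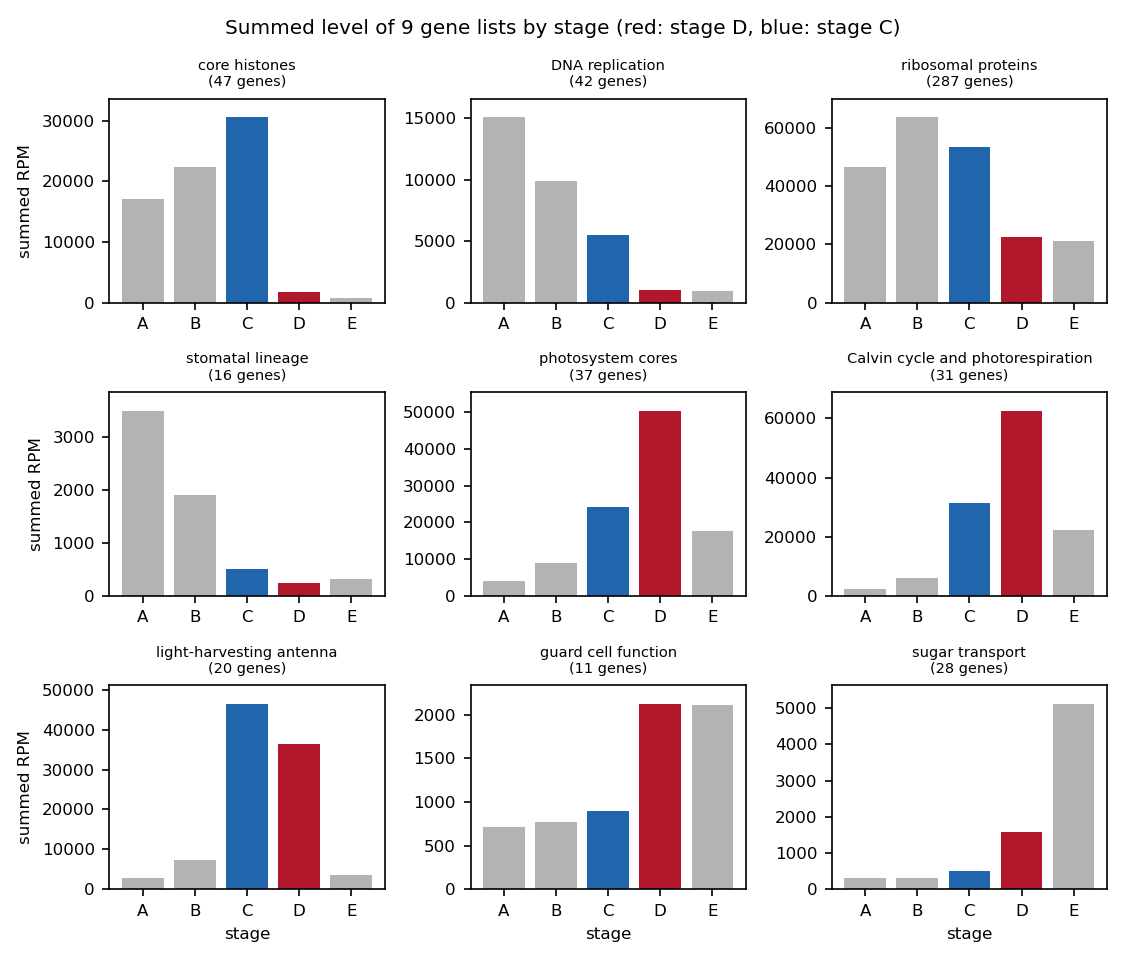
Summed RPM of 9 gene lists in stages A to E, with stage D in red and stage C in blue. Core histones reach 30522 RPM in stage C, against 1704 RPM in stage D, while sugar transport reaches 1567 RPM in stage D, against 498 RPM in stage C.

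Genes for chromatin assembly and DNA synthesis were far lower in stage D. Core histones, the proteins that package newly made DNA, summed to 1704 RPM in stage D and 30522 RPM in stage C, 17.9-fold lower (17.7 to 18.1). Their sum was 17050 RPM in stage A, 22370 RPM in stage B and 810 in stage E, so stage D was also 13.1-fold lower than stage B. Of 47 histone genes, 42 were lower and 1 was higher, the median member was -3.89 on the log2 scale, and the sums of all 4 histone descriptions were lower. On Arabidopsis chromosome 1, 12 of 12 members were lower, and elsewhere 30 of 35. The histone gene AT1G07790 had 53.6 RPM in stage D and 4985 RPM in stage C, 93.0-fold lower (87.0 to 99.5), and 539 RPM in stage B. AT1G07660 had 72.3 RPM in stage D and 4508 RPM in stage C, against 1144 RPM in stage B. These loci therefore stood above stage B in stage C, as low-numbered loci did in general. The histone superfamily description, with 31 of 33 genes lower, summed to 1233 RPM in stage D and 27154 RPM in stage C, 22-fold lower. Histone 3 11 (AT5G65350) had 0 reads in stage D and 329 RPM in stage C, at least 1798-fold lower against the floor of 3 reads. The variant H2AX (AT1G54690), which marks DNA breaks, had 6.11 RPM in stage D and 418 RPM in stage C, with 94.9 RPM in stage B. The exception was the histone-like AT5G19490, with 14.9 RPM in stage D and 1.75 RPM in stage C.

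DNA replication genes summed to 1005 RPM in stage D and 5500 RPM in stage C, 5.47-fold lower (5.38 to 5.57), after 15081 RPM in stage A and 9869 in stage B. Of 42 members 32 were lower and 1 was higher, and 21 of 25 description sums were lower with none higher. Away from chromosome 1, 24 of 31 members were lower. PCNA1 (AT1G07370), the clamp that holds DNA polymerase on its template, had 37.0 RPM in stage D and 552 RPM in stage C, 14.9-fold lower (13.8 to 16.3), with 556 RPM in stage B. Topoisomerase II (AT3G23890), which untangles replicated chromosomes, had 36.4 RPM in stage D and 362 RPM in stage C, 9.95-fold lower (9.14 to 10.8). Ribonucleotide reductase makes the building blocks of DNA. Its large subunit (AT2G21790) had 183 RPM in stage D and 1047 RPM in stage C, and its small subunit (AT3G23580) had 83.2 RPM in stage D and 764 RPM in stage C. They were lower by 5.72-fold and 9.19-fold. MCM9 (AT2G14050), a relative of the replicative helicase, had 0.489 RPM in stage D and 17.5 RPM in stage C, 35.8-fold lower (17.9 to 83.8).

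Cyclins and their kinases moved in both directions. Their 64 genes summed to 1161 RPM in stage D and 1923 RPM in stage C, 1.66-fold lower and not called, against 4464 RPM in stage B. Among them 30 were lower and 11 higher. On chromosome 1, 16 of 22 were lower and 1 higher, and elsewhere 14 of 42 were lower and 10 higher, so the calls leaned with the locus order. CDKB2;2 (AT1G20930), a kinase of the passage into mitosis, had 11.2 RPM in stage D and 218 RPM in stage C, 19.4-fold lower (16.7 to 22.7), with 345 RPM in stage B. The B-type cyclin CYCB1;5 (AT1G34460) had 0.855 RPM in stage D and 43.0 RPM in stage C, and the cyclin AT1G20590 had 4.28 RPM in stage D and 126 RPM in stage C. These 3 lie on chromosome 1. Away from it, the B-type cyclin CYCB2;2 (AT4G35620) had 3.85 RPM in stage D, 54.9 RPM in stage C and 148 RPM in stage B. In the other direction, CYCD3;1 (AT4G34160), a D-type cyclin that keeps leaf cells dividing, had 82.8 RPM in stage D and 9.10 RPM in stage C, 9.10-fold higher (7.59 to 11.0). Over the whole series it had 534 RPM in stage A, 271 RPM in stage B and 6.64 in stage E, so stage C lay below both of its neighbours. The P-type cyclins CYCP4;1 (AT2G44740) and CYCP2;1 (AT3G21870) were also higher. CYCP4;1 had 73.9 RPM in stage D and 13.6 RPM in stage C, with 3.99 RPM in stage B. The description that holds these cyclins, with 34 genes, summed to 489 RPM in stage D and 923 RPM in stage C and was not called.

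Microtubule genes and kinesins summed to 5329 RPM in stage D and 13593 RPM in stage C, 2.55-fold lower (2.53 to 2.57), with 37 of 81 members lower and 7 higher. Stage B lay near stage C at 12301 RPM. Single tubulin loci moved further than the sum: the beta-5 chain (AT1G20010) had 224 RPM in stage D and 2371 RPM in stage C, and the alpha-4 chain (AT1G04820) had 126 RPM in stage D and 1636 RPM in stage C. In stage B the same genes had 401 and 282 RPM, so most of that difference was a high value in stage C. The kinesin AT1G18370, an ATP-binding motor of its description, had 7.76 RPM in stage D, 116 RPM in stage C and 148 RPM in stage B, and its 15-gene description was lower too, at 331 RPM in stage D and 764 RPM in stage C. A kinesin on chromosome 4 (AT4G39050) was 4.43-fold higher, at 170 RPM in stage D and 38.5 RPM in stage C, but its description was not called.

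The machinery of protein synthesis was lower in stage D. The 287 ribosomal protein genes summed to 22460 RPM in stage D and 53399 RPM in stage C, 2.38-fold lower (2.37 to 2.39), against 63630 RPM in stage B. Of these, 131 were lower and 27 higher, the median was -0.83, and 51 of 76 description sums were lower with 5 higher. Ribosomal protein 1 (AT1G43170) had 404 RPM in stage D and 1987 RPM in stage C, with a like level in stage B of 1908 RPM. The S15A gene AT1G07770 had 198 RPM in stage D and 2557 RPM in stage C, with 680 RPM in stage B. The L38e gene AT2G43460 had 6.54 RPM in stage D and 476 RPM in stage C, and its description of 2 genes kept the direction at 102 RPM in stage D and 529 RPM in stage C. Ribosomal protein L12-B (AT3G27840) went the other way, at 51.6 RPM in stage D and 0.840 RPM in stage C, 61.4-fold higher (35.0 to 119).

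Translation factors summed to 10234 RPM in stage D and 17289 RPM in stage C, 1.69-fold lower and not called, with 34 of 92 members lower and 11 higher. EF-1A and EF-Tu factors, which bring charged tRNAs to the ribosome, were grouped with related descriptions, among them a family that also names initiation factor IF2gamma. Of the 10 genes in this group 8 were lower and none higher. They summed to 807 RPM in stage D and 5373 RPM in stage C, 6.66-fold lower (6.54 to 6.79), against 2234 RPM in stage B. The EF-1A loci AT1G07920 and AT1G07940, near-identical genes, had 96.3 and 98.2 RPM in stage D and 1457 and 1412 RPM in stage C. The beta subunit of eIF2 (AT5G20920), an initiation factor, was 6.60-fold higher, at 145 RPM in stage D and 21.9 RPM in stage C, with 246 RPM in stage B. Here too stage C lay below both neighbours.

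Proteasome subunits and polyubiquitin, which degrade tagged proteins, summed to 2577 RPM in stage D and 5468 RPM in stage C, 2.12-fold lower (2.10 to 2.15), and to 6182 RPM in stage B. Of 44 members 19 were lower and 3 higher. Polyubiquitin 10 (AT4G05320) had 121 RPM in stage D and 603 RPM in stage C, and polyubiquitin 3 (AT5G03240) had 73.5 RPM in stage D and 513 RPM in stage C. The polyubiquitin description summed to 194 RPM in stage D, 1117 RPM in stage C and 301 RPM in stage B. Without its member with the highest level the list's log2 difference was -0.99, just inside the 2-fold rule. The proteasome subunit PBB2 (AT5G40580) was higher, at 137 RPM in stage D and 40.7 RPM in stage C, yet lower than the 334 RPM of stage B.

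The stomatal lineage had more members lower than higher in stage D. Its 16 measured genes summed to 238 RPM in stage D and 498 RPM in stage C, 2.09-fold lower (2.01 to 2.18), after 3491 RPM in stage A and 1909 in stage B. Of these 7 were lower, 2 higher and 7 not called, with a median of -1.05. On chromosome 1, 4 of 6 were lower and 1 higher, and elsewhere 3 of 10 were lower and 1 higher, so the calls leaned with the locus order. Only 1 of the 7 lower genes had its full description sum called lower, and neither higher gene had its sum called higher. The receptor kinase ERECTA (AT2G26330), which restrains stomatal formation and promotes growth, made up much of the sum. It had 2415 RPM in stage A, 1176 RPM in stage B, 204 RPM in stage C, 62.9 RPM in stage D and 119 RPM in stage E. Without it the list's log2 difference was -0.74, and with median-of-ratios scaling it was -0.98, so the sum no longer passed the 2-fold rule in either case.

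Its relative ERL2 (AT5G07180) was lower, at 30.4 RPM in stage D and 81.8 RPM in stage C. ERL1 (AT5G62230), at 32.1 RPM in stage D and 51.2 RPM in stage C, was not called. Their description summed to 62.4 RPM in stage D and 133 RPM in stage C, below 521 RPM in stage B. The receptor-like protein TMM (AT1G80080), their partner in the stomatal lineage, was 7.84-fold lower (5.36 to 11.8), with 14.9 RPM in stage B, a value close to the 14.8 RPM of stage C. SPCH (AT5G53210), the factor that starts the lineage, was 5.96-fold lower (3.4 to 11.2), at 15 reads in stage D and 78 reads in stage C, and had its highest level in stage B, at 26.7 RPM. SDD1 (AT1G04110), a protease that limits stomatal density, had 10.4 RPM in stage D and 26.2 RPM in stage C, and its 7.73 RPM in stage B and 1.18 in stage A were lower than either. FLP (AT1G14350) and MYB88 (AT2G02820), paired factors that end the divisions of guard cell precursors, moved in opposite directions. FLP had 8.37 RPM in stage D and 19.7 RPM in stage C, while MYB88 had 16 RPM in stage D and 6.02 RPM in stage C. FLP lies on chromosome 1, and in stage B it had 10.9 RPM and MYB88 22.7 RPM, so both were below stage B and neither was called against it.

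The factors of the later lineage were near the limit of detection. MUTE (AT3G06120), which ends the dividing phase, had 1.59 RPM in stage D and 3.15 RPM in stage C, its highest value in the series. FAMA (AT3G24140), which sets guard cell identity, had 6.29 RPM in stage D and 4.41 RPM in stage C. Neither passed the rule. The secreted peptides EPF1 (AT2G20875), EPF2 (AT1G34245) and stomagen (AT4G12970) had 0.855, 0.367 and 1.83 RPM in stage D and 2.59, 2.17 and 3.92 RPM in stage C. All stayed under the 5 RPM minimum and were not called, and stomagen, which promotes stomata, had its highest value in stage C.

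The sum over genes of guard cell function was higher, mainly through the phototropins. The 11 measured genes summed to 2126 RPM in stage D and 896 RPM in stage C, 2.37-fold higher (2.33 to 2.42), with 770 RPM in stage B. Of these 5 were higher and none lower. The blue-light receptors PHOT1 (AT3G45780) and PHOT2 (AT5G58140), which drive stomatal opening and chloroplast movement and are not restricted to guard cells, held most of this level. Without them the other 9 genes, in a sum added after the values were seen, had 229 RPM in stage D and 136 RPM in stage C, 1.68-fold higher (1.59 to 1.77) and not called, with 223 RPM in stage B. PHOT1 had 290 RPM in stage A, 383 RPM in stage B, 553 RPM in stage C, 1242 RPM in stage D and 1086 RPM in stage E. PHOT2 had 656 RPM in stage D and 206 RPM in stage C, 3.19-fold higher (3.06 to 3.32), and the description of both summed to 1898 RPM in stage D and 759 RPM in stage C. The inward potassium channel KAT1 (AT5G46240) had 22.1 RPM in stage D and 5.46 RPM in stage C, 4.05-fold higher (3.16 to 5.24), with 15 RPM in stage B. OST1 (AT4G33950), the kinase through which abscisic acid closes stomata, had 91.1 RPM in stage D and 43.0 RPM in stage C, and reached 271 RPM in stage E. HT1 (AT1G62400), a kinase of the carbon dioxide response, was 2.65-fold higher (2.22 to 3.19). The anion channel SLAC1 (AT1G12480) had 5.87 RPM in stage D and 5.88 RPM in stage C and was not called. GORK (AT5G37500), ALMT12 (AT4G17970) and KAT2 (AT4G18290), also guard cell channels, were not called either, with folds between 1.72 and 1.95. The exchanger CHX20 (AT3G53720) had 0 reads in stage D and 1 read in stage C.

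Regulators of epidermal identity were not higher as a group in the stage named for the epidermis. The HD-ZIP IV factors and epidermal signalling genes, 14 in all, summed to 291 RPM in stage D and 398 RPM in stage C, with 505 RPM in stage B. Of these 1 was called higher and 2 lower, none was higher than in stage B and 5 were lower. Among all genes 10.5% were higher and 19.5% lower in stage D than in stage B. ATML1 (AT4G21750), the factor that specifies the outer cell layer, had 20.6 RPM in stage D and 11.2 RPM in stage C, below the 51.3 RPM of stage B. Its partner PDF2 (AT4G04890) had 19.4 RPM in stage D and 13.9 RPM in stage C, and 41.6 RPM in stage B. Neither was called against stage C. HDG2 (AT1G05230), which promotes stomatal fate when expressed in excess, was 3.4-fold lower (3.05 to 3.79), at 27.4 RPM in stage D and 93.2 RPM in stage C, with 57.0 RPM in stage B. ANL2 (AT4G00730), a regulator of anthocyanin in the layer below the epidermis, was 3.08-fold higher (2.32 to 4.14), at 13.6 RPM in stage D and 4.41 RPM in stage C. The homeodomain GLABROUS description summed to 44.3 RPM in stage D and 133 RPM in stage C, and the homeobox-leucine zipper description that holds ATML1 and ANL2 summed to 95.3 RPM in stage D and 197 RPM in stage C. HDG8 (AT3G03260) had 0 reads in stage D.

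Trichome patterning genes, 15 in all, summed to 195 RPM in stage D and 160 RPM in stage C, but 394 RPM in stage B, and 9 of them were lower than in stage B. Against stage C, 4 were higher and 2 lower. The 4 higher members were the R2R3 factors MYB23 and WER and the single-repeat inhibitors TRY and CPL3, and all lay on chromosomes 4 and 5. TRY (AT5G53200) had 14.2 RPM in stage D and 3.29 RPM in stage C, with 18.1 RPM in stage B. WER (AT5G14750), which specifies non-hair cells in the root, had 19.6 RPM in stage D and 8.54 RPM in stage C, with 63.4 RPM in stage B. CPL3 (AT4G01060) was the member higher than in both, with 15.2 RPM in stage D, 3.85 RPM in stage C and 5.92 RPM in stage B. The lower members, GL2 (AT1G79840), a homeodomain factor of trichome growth, and ETC1 (AT1G01380), an inhibitor like TRY, lay on chromosome 1. GL2 had 3.48 RPM in stage D and 11.3 RPM in stage C, with 13.3 RPM in stage B. ETC1 was lower than in stage B too, at 11.2 RPM in stage D, 40.2 RPM in stage C and 28.4 RPM in stage B.

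Cuticle and wax genes showed no change as a sum, at 5242 RPM in stage D, 4753 RPM in stage C and 4716 RPM in stage B, with 16 of 49 members higher and 13 lower. Members changed places. CER6 (AT1G68530), the elongating enzyme of very-long-chain wax in the epidermis, had 468 RPM in stage D and 97.4 RPM in stage C, 4.81-fold higher (4.54 to 5.09), with 313 RPM in stage B. KCS1 (AT1G01120), an elongase of the same family, had 5.87 RPM in stage D and 208 RPM in stage C, against 3.32 RPM in stage B. KCS19 (AT5G04530) was 6.87-fold higher (5.82 to 8.16), with 76.5 RPM in stage D and 11.1 RPM in stage C. The 3-ketoacyl-CoA synthase description, with 21 genes, summed to 1894 RPM in stage D and 1851 RPM in stage C and was not called. A step that did hold on the sum was fatty acid omega-hydroxylation for cutin. CYP86A8 (AT2G45970) had 308 RPM in stage D and 30.8 RPM in stage C, 10-fold higher (9.08 to 11.1). The CYP86A description of 5 genes summed to 889 RPM in stage D and 384 RPM in stage C, 2.31-fold higher, and to 240 RPM in stage B. GPAT4 (AT1G01610), an acyltransferase of cutin monomers, had 469 RPM in stage D and 493 RPM in stage C. The wax ester synthase WSD1 (AT5G37300) had 7.39 RPM in stage D and 0.350 RPM in stage C, a value of 5 reads, and 25.1 RPM in stage B.

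GDSL lipases, a large family that includes cutin synthases, had 31 of 73 members higher and 10 lower. On chromosome 1, 7 of 30 were higher and 4 lower, and elsewhere 24 of 43 were higher and 6 lower. Only 1 of the 31 higher members had its full description sum called higher. The list summed to 3218 RPM in stage D and 2015 RPM in stage C, 1.60-fold higher and not called. The gene AT5G33370 had 692 RPM in stage D and 325 RPM in stage C, while AT5G18430 had 183 RPM in stage D and 448 RPM in stage C. Both lie on chromosome 5. Lipid transfer proteins, small secreted carriers found in the cuticle, summed to 1187 RPM in stage D and 926 RPM in stage C, and both were far above the 272 RPM of stage B. The gene with the highest level, AT1G62500, had 456 RPM in stage D and 677 RPM in stage C, and without it the remaining 26 members gave a log2 difference of 1.55. Of all 27 members, however, 6 were higher, 6 lower and 15 not called, with a median of 0.09. Of their 2 description sums 1 was lower and none higher.

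Photosynthetic genes rose, but not in all parts of the apparatus. The 37 nuclear genes of the photosystem cores and electron transport summed to 4012 RPM in stage A, 8862 RPM in stage B, 24236 RPM in stage C, 50480 RPM in stage D and 17595 RPM in stage E. The step to stage D was 2.08-fold (2.07 to 2.09) over stage C, with 15 members higher and 4 lower. PsaF (AT1G31330), the subunit of photosystem I that docks plastocyanin, had 24809 RPM in stage D and 7503 RPM in stage C, 3.31-fold higher (3.28 to 3.33), although it lies on chromosome 1. Without it the list's log2 difference was 0.62 and no longer passed the rule. The photosystem I subunit description of 10 genes summed to 33815 RPM in stage D and 14210 RPM in stage C, 2.38-fold higher. PsbO, which stabilises the water-splitting cluster, was listed under a pair of loci that moved in opposite directions. PsbO1 (AT5G66570) had 1498 RPM in stage D and 192 RPM in stage C, while PsbO2 (AT3G50820) had 169 RPM in stage D and 1563 RPM in stage C. In stage B they had 389 and 42.8 RPM, and both were higher in stage D than in stage B. Plastocyanin 1 (AT1G76100), the copper carrier of electrons, had 21.1 RPM in stage D, 339 RPM in stage C and 3.26 RPM in stage B.

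The light-harvesting antenna was not higher as a sum. Its 20 genes summed to 36516 RPM in stage D and 46504 RPM in stage C, 1.27-fold lower and not called, and 20 of 20 were higher than in stage B, whose sum was 7268 RPM. Against stage C, 6 were higher and 6 lower, with a median member of 0.66. The near-identical CAB1 (AT1G29930), CAB2 (AT1G29920) and CAB3 (AT1G29910), chlorophyll-binding proteins of photosystem II, were all lower. CAB3 had 1068 RPM in stage D and 13966 RPM in stage C, 13.1-fold lower (12.9 to 13.3). CAB1 had 1647 RPM in stage D and 7935 RPM in stage C, and CAB2 had 1668 RPM in stage D and 5131 RPM in stage C. Without CAB3 the antenna sum gave a log2 difference of 0.12. LHCB3 (AT5G54270), an antenna protein of photosystem II on chromosome 5, had 9295 RPM in stage D and 1446 RPM in stage C, 6.43-fold higher (6.33 to 6.52), with 2133 RPM in stage B. The antenna of photosystem I kept its direction on the sum. Its 5-gene description had 6819 RPM in stage D and 2367 RPM in stage C, 2.88-fold higher, although LHCA6 (AT1G19150) within it had 33.8 RPM in stage D and 675 RPM in stage C. LHCA2 (AT3G61470) had 1315 RPM in stage D and 76.4 RPM in stage C, 17.2-fold higher (16.2 to 18.3).

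Carbon fixation genes were higher. Calvin cycle and photorespiration genes, 31 in all, summed to 62599 RPM in stage D and 31290 RPM in stage C, 2-fold higher (1.99 to 2.01), and to 6075 RPM in stage B. Of these 12 were higher, none of them on chromosome 1, and 3 lower. The counting interval reaches below 2-fold, and without rubisco activase the log2 difference was 0.77. Rubisco activase (AT2G39730), which keeps the carbon-fixing enzyme active, had 25701 RPM in stage D and 9581 RPM in stage C, 2.68-fold higher (2.67 to 2.70), with 1185 RPM in stage B. It is alone in its description. The small subunit of rubisco, as a description of 3 genes, summed to 1396 RPM in stage D and 556 RPM in stage C. GAPA (AT3G26650), a dehydrogenase of the cycle, was 4.11-fold higher, at 7471 RPM in stage D and 1817 RPM in stage C. Its near copy GAPA2 (AT1G12900) had 5762 RPM in stage D and 7933 RPM in stage C, and the sum of both was not called at 13234 RPM in stage D and 9750 RPM in stage C.

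Carbonic anhydrase, which supplies carbon dioxide inside the chloroplast and the cytosol, stood out among single genes. CA1 (AT3G01500) had 13.1 RPM in stage A, 44.3 RPM in stage B, 832 RPM in stage C, 4009 RPM in stage D and 611 RPM in stage E. CA2 (AT5G14740) had 3179 RPM in stage D and 155 RPM in stage C, 20.5-fold higher (19.7 to 21.4), with 38.1 RPM in stage B. The beta carbonic anhydrase 3 (AT1G23730) had 168 RPM in stage D and 691 RPM in stage C. All 6 beta carbonic anhydrases together summed to 8547 RPM in stage D and 2500 RPM in stage C, 3.42-fold higher (3.38 to 3.46), and to 153 RPM in stage B. The short list of mesophyll and meristem markers rested on CA1 alone: it summed to 4880 RPM in stage D and 1808 RPM in stage C, and without CA1 the log2 difference was -0.16.

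Loci of the plastid genome, measured here although the libraries were selected for poly(A) RNA, summed to 7785 RPM in stage D and 1941 RPM in stage C, 4.01-fold higher (3.96 to 4.06). The other stages had 2502 RPM in A, 2069 RPM in B and 13442 RPM in E. Of 87 loci 29 were higher, none lower and 58 not called, and 20 of 44 description sums were higher. In the last group of nuclear loci 28.0% of genes were higher and 9.32% lower. Whether the tilt of stage C along the locus order extends to plastid loci was not tested. YCF9 (ATCG00300), a small photosystem II protein also called PsbZ, had 5354 RPM in stage D and 1090 RPM in stage C, 4.91-fold higher (4.83 to 5.0). Without it the log2 difference was 1.51. The reaction centre gene psbD (ATCG00270) had 310 RPM in stage D and 44.4 RPM in stage C, and psbC (ATCG00280), a core antenna protein, had 696 RPM in stage D and 253 RPM in stage C. Ycf1 (ATCG01130), part of the import machinery of the inner envelope, had 77.8 RPM in stage D and 6.65 RPM in stage C, with 84.6 RPM in stage B.

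Chlorophyll synthesis genes summed to 7421 RPM in stage D and 5660 RPM in stage C, 1.31-fold higher and not called, with 3 of 14 members higher and 2 lower. CHLH (AT5G13630), the large subunit that inserts magnesium, had 2571 RPM in stage D and 1136 RPM in stage C, and fell back to 96.3 RPM in stage E. The glutamyl-tRNA reductases, the first committed step, moved apart: AT1G58290 had 988 RPM in stage D and 160 RPM in stage C, and AT1G09940 had 135 RPM in stage D and 401 RPM in stage C. PORC (AT1G03630), the light-dependent reductase, had 414 RPM in stage D and 1420 RPM in stage C, with 254 RPM in stage B.

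The summed level of sugar transport genes rose and kept rising to maturity. The 28 sugar transporters summed to 319 RPM in stage A, 319 RPM in stage B, 498 RPM in stage C, 1567 RPM in stage D and 5121 RPM in stage E. Stage D was 3.15-fold higher than stage C (3.07 to 3.23), with 14 members higher and 3 lower. SWEET11 (AT3G48740) and SWEET12 (AT5G23660) release sucrose next to the phloem. SWEET11 had 169 RPM in stage D and 10.6 RPM in stage C, 15.9-fold higher (13.5 to 18.8), with 2.30 RPM in stage B and 992 in stage E. SWEET12 had 215 RPM in stage D and 6.79 RPM in stage C, 31.7-fold higher (25.9 to 39.2), with 3.20 RPM in stage B and 1026 in stage E. The nodulin MtN3 description that holds SWEET11 summed to 665 RPM in stage D and 139 RPM in stage C, 4.80-fold higher. Sucrose-proton symporters, which load sucrose into the phloem, summed to 377 RPM in stage D and 163 RPM in stage C over 6 genes. The hexose carriers STP2 (AT1G07340) and STP6 (AT3G05960) were lower, at 0.305 and 0.244 RPM in stage D and 8.68 and 10 RPM in stage C, but in stage B both had 0.181 RPM and their description was not called.

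Starch and sucrose genes summed to 4312 RPM in stage D and 3129 RPM in stage C and were not called, with 11 of 45 members higher and 7 lower. Beta-amylases, which release maltose from starch, were higher as a description of 8 genes, at 900 RPM in stage D and 344 RPM in stage C, 2.61-fold higher. Among them BAM3 by its description (AT5G18670) had 487 RPM in stage D and 52.4 RPM in stage C, with 9.30 RPM in stage B. The chloroplast beta-amylase AT4G17090 had 246 RPM in stage D and 27.9 RPM in stage C, with 21.6 RPM in stage B. APL1 (AT5G19220), a large subunit of the enzyme that feeds starch synthesis, was 3.54-fold higher (3.41 to 3.67), at 834 RPM in stage D and 236 RPM in stage C.

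Aquaporins summed to 15943 RPM in stage D and 13308 RPM in stage C, both far above 4397 RPM in stage B, with 11 of 34 members higher and 10 lower. Among the plasma membrane water channels, PIP1A (AT3G61430) had 5930 RPM in stage D and 780 RPM in stage C, 7.61-fold higher (7.46 to 7.76). PIP1C (AT1G01620) had 1786 RPM in stage D and 4556 RPM in stage C, and PIP2E (AT2G39010) had 34.5 RPM in stage D and 367 RPM in stage C. The description of 12 such channels was not called, at 15467 RPM in stage D and 12398 RPM in stage C. A seed-type vacuolar channel, beta-TIP (AT1G17810), had 3 reads in stage D and 77.4 RPM in stage C, 422-fold lower (144 to 2051), but 0.604 RPM in stage B.

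Ion transport genes, of interest in a salt-secreting leaf, summed to 6093 RPM in stage D and 5994 RPM in stage C, with 4703 RPM in stage B. Of 75 genes 19 were higher and 14 lower, and 7 of 36 description sums were higher and 2 lower. The chloride channel family that stores nitrate and chloride in the vacuole was higher as a sum of 6 genes, at 486 RPM in stage D and 202 RPM in stage C. CLC-A (AT5G40890) among them was 7.20-fold higher (6.23 to 8.36), with 105 RPM in stage D and 14.6 RPM in stage C. The potassium channel AT5G55630, alone in its description, had 31.4 RPM in stage D and 2.45 RPM in stage C, 12.8-fold higher (9.10 to 18.6), with 12.5 RPM in stage B. Proton pumps of the plasma membrane, which power ion transport, again split by locus. AHA11 (AT5G62670) had 611 RPM in stage D and 109 RPM in stage C, and AHA10 (AT1G17260) had 121 RPM in stage D and 896 RPM in stage C. The description of 10 of these pumps summed to 2236 RPM in stage D and 1779 RPM in stage C.

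Wall-loosening genes had a higher sum and a lower median. Expansins and xyloglucan endotransglucosylases (XTH) summed to 10503 RPM in stage D and 7013 RPM in stage C, 1.5-fold higher and not called, while the median of the 60 members was -1.17. Of these 18 were higher and 26 lower. On the sums, 3 of 5 descriptions were higher and none lower. None of the 26 lower members had its full description sum called lower, and 4 of the 18 higher members had theirs called higher. XTH16 (AT3G23730) had 2535 RPM in stage D and 448 RPM in stage C, 5.66-fold higher (5.52 to 5.82), with 344 RPM in stage B. XTH4 (AT2G06850), another abundant member, had 1724 RPM in stage D and 1680 RPM in stage C. XTH19 (AT4G30290) had 0.244 RPM, 4 reads, in stage D and 117 RPM in stage C, yet 0 reads in stage B. XTH21 (AT2G18800) had 1.1 RPM in stage D, 218 RPM in stage C and 1.51 RPM in stage B. Expansin A14 (AT5G56320) was 8.70-fold higher (7.74 to 9.80), at 191 RPM in stage D and 21.9 RPM in stage C. Expansin-like A1 (AT3G45970) had 13.0 RPM in stage D and 0 reads in stage C, at least 61.7-fold higher.

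Cellulose, hemicellulose and lignin genes summed to 4457 RPM in stage D and 4613 RPM in stage C, and pectin enzymes to 1324 RPM in stage D and 1339 RPM in stage C. Neither sum was called. Of the 74 genes of cellulose and lignin 22 were higher and 18 lower, and of the 111 pectin genes 18 were higher and 28 lower. The cellulose synthase-like description of 13 genes was lower as a sum, at 362 RPM in stage D and 985 RPM in stage C. Its member CSLD5 (AT1G02730), which acts in cell plate formation, had 5.01 RPM in stage D, 242 RPM in stage C and 78.8 RPM in stage B. The fasciclin-like arabinogalactan protein 6 (AT2G20520) had 107 RPM in stage D, 11.5 RPM in stage C and 2.05 RPM in stage B, and its description of 3 genes summed to 245 RPM in stage D and 53.8 RPM in stage C. Markers of vessels and phloem summed to 1010 RPM in stage D and 745 RPM in stage C, against 265 RPM in stage B. The SWEET genes described above are 2 of its 4 higher members, and the cellulose synthase of vessels, CESA8 (AT4G18780), had 57.1 RPM in stage D and 155 RPM in stage C.

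All 3 ACC oxidases, the enzymes of the last step of ethylene synthesis, were higher. They summed to 2079 RPM in stage D and 421 RPM in stage C, 4.93-fold higher (4.80 to 5.07), with 143 RPM in stage B and 3061 in stage E. ACC oxidase 2 (AT1G62380) had 874 RPM in stage D and 50.9 RPM in stage C. The ethylene-forming enzyme (AT1G05010) had 1187 RPM in stage D and 365 RPM in stage C. ACC oxidase 1 (AT2G19590) had 18.6 RPM in stage D and 5.74 RPM in stage C. ACC oxidase 2 and the ethylene-forming enzyme lie on chromosome 1 and ACC oxidase 1 on chromosome 2. Whether the tilt of stage C bears on this sum was not tested.

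The 4 enzymes that break down abscisic acid, the CYP707A family, were likewise all higher. They summed to 776 RPM in stage D and 85.3 RPM in stage C, 9.10-fold higher (8.58 to 9.66), and to 27.7 RPM in stage B. CYP707A2 (AT2G29090) had 397 RPM in stage D and 42.7 RPM in stage C, and CYP707A1 (AT4G19230) had 202 RPM in stage D and 21.7 RPM in stage C. CYP707A4 (AT3G19270) had 84.1 RPM in stage D, 12.1 RPM in stage C and 1.81 RPM in stage B. Response genes of abscisic acid and dehydration summed to 3253 RPM in stage D and 2210 RPM in stage C and were not called, with 12 of 51 members higher and 3 lower. The dehydrin AT1G54410 had 48.9 RPM in stage D, 173 RPM in stage C and 590 RPM in stage B.

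Auxin genes had 33 of 117 members higher and 14 lower. They summed to 5267 RPM in stage D and 3285 RPM in stage C, 1.60-fold higher and not called. On chromosome 1, 9 of 41 were higher and 11 lower, and elsewhere 24 of 76 were higher and 3 lower, so the calls leaned with the locus order. The full description sum was called higher for 24 of the 33 higher members. The SAUR family of small auxin-induced proteins, linked to cell expansion, was higher as a description of 40 genes, at 677 RPM in stage D and 122 RPM in stage C, 5.56-fold higher, with 146 RPM in stage B. AT4G38860 had 189 RPM in stage D and 2.80 RPM in stage C, 67.6-fold higher (49.5 to 94.8). The chromosome 1 SAUR AT1G29500 had 79.7 RPM in stage D and 1.19 RPM in stage C, 67.0-fold higher (41.7 to 115), and 237 RPM in stage E. A SAUR that went the other way, AT1G19830, had 2 reads in stage D and 28.5 RPM in stage C. GH3 enzymes, which conjugate auxin to amino acids, summed to 1424 RPM in stage D and 689 RPM in stage C over 18 genes, 2.07-fold higher. The GH3 gene AT5G54510 had 543 RPM in stage D and 46.8 RPM in stage C, with 272 RPM in stage B. The auxin carrier PIN7 (AT1G23080) had 564 RPM in stage D and 662 RPM in stage C.

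Jasmonate and lipoxygenase genes were at low levels and summed to 146 RPM in stage D and 164 RPM in stage C, with 1 of 20 higher and 6 lower. JAZ1 (AT1G19180), a repressor of the jasmonate response, had 0.489 RPM in stage D and 10.5 RPM in stage C, but 0.664 RPM in stage B.

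No sum over a list of transcription factors was called. MYB factors had 66 of 136 members lower and 11 higher, a median of -1.53, and a sum of 949 RPM in stage D and 1397 RPM in stage C that was not called. Against stage B, 18 were lower. Only 1 of the 66 lower members had its full description sum called lower, and 2 of the 11 higher members had theirs called higher. MYB13 (AT1G06180) had 1.04 RPM in stage D and 46.1 RPM in stage C, with 1.45 RPM in stage B. MYB61 (AT1G09540), linked to stomatal aperture and to wall formation, had 10.9 RPM in stage D and 73.4 RPM in stage C, with 10.3 RPM in stage B. Both thus had their high value in stage C only. MYB48 (AT3G46130) was 8.92-fold higher (6.99 to 11.6), at 44.4 RPM in stage D and 4.97 RPM in stage C, and reached 353 RPM in stage E. NAC factors summed to 453 RPM in stage D and 419 RPM in stage C, with 5 of 67 higher and 12 lower. The full description sum was called higher for 1 of the 5 higher members and lower for 1 of the 12 lower ones. NAC083 (AT5G13180), a regulator of vessel formation, had 95.5 RPM in stage D and 8.12 RPM in stage C, and xylem NAC domain 1 (AT5G64530) had 15.9 RPM in stage D and 1.54 RPM in stage C. WRKY factors, with 4 of 52 higher and 6 lower, summed to 223 RPM in stage D and 264 RPM in stage C. AP2/ERF factors, with 3 of 65 higher and 7 lower, summed to 115 RPM in stage D and 206 RPM in stage C.

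Leaf growth and polarity factors together had 179 RPM in stage D and 288 RPM in stage C, below 626 RPM in stage B, with 3 of 26 higher and 6 lower. The sum was not called and the median member was -0.07. AT1G08465, on chromosome 1, held 49.2% of the stage C sum and 19.4% of the stage D sum. Without it the log2 difference was -0.02. The YABBY factor AT2G26580, of the lower leaf side, had 62.8 RPM in stage D and 20.7 RPM in stage C, but 161 RPM in stage B. Another YABBY factor, AT4G00180, had 0.244 RPM in stage D, 13.0 RPM in stage C and 34.7 RPM in stage B, lower than both. AINTEGUMENTA (AT4G37750), which prolongs growth, had 19.4 RPM in stage D and 8.54 RPM in stage C, far below the 169 RPM of stage B. Clock genes differed in phase partners: CCA1 (AT2G46830), a morning gene, had 28.7 RPM in stage D and 3.43 RPM in stage C, while the evening gene GI (AT1G22770) had 21.3 RPM in stage D and 46.2 RPM in stage C. LHY (AT1G01060), also a morning gene, had 137 RPM in stage D and 77.1 RPM in stage C and was not called. The time of day of each harvest is not given in the labels.

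Cytochrome P450 enzymes had 88 of 211 members higher and 19 lower, with a median of 0.90 and a sum of 5953 RPM in stage D and 3045 RPM in stage C. The fold of 1.96 (1.93 to 1.98) missed the rule narrowly and passed it with median-of-ratios scaling. On chromosome 1, 6 of 46 were higher and 14 lower, and elsewhere 82 of 165 were higher and 5 lower, so the calls leaned with the locus order. Of 60 description sums 23 were higher and 4 lower. CYP82 enzymes, 4 of 5 of them higher, summed to 654 RPM in stage D and 88.0 RPM in stage C, 7.44-fold higher (7.01 to 7.89), with 121 RPM in stage B. AT4G31950 among them had 265 RPM in stage D and 15.6 RPM in stage C. The CYP77B gene AT1G11600 was 14.6-fold lower (12.1 to 17.9), at 6.96 RPM in stage D, 102 RPM in stage C and 198 RPM in stage B.

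Flavonoid and phenylpropanoid genes summed to 4932 RPM in stage D and 3997 RPM in stage C, with 7607 RPM in stage B, and 3 of 24 were higher and 9 lower. FLS1 (AT5G08640), which makes flavonols, had 634 RPM in stage D and 113 RPM in stage C, close to the 669 RPM of stage B. The description of 6 flavonol synthases summed to 817 RPM in stage D and 218 RPM in stage C, with 1140 RPM in stage B. Chalcone synthase (AT5G13930), the entry to the pathway, had 1841 RPM in stage D and 1772 RPM in stage C. PAL2 (AT3G53260), which supplies the pathway with cinnamate, had 900 RPM in stage D, 291 RPM in stage C and 1008 RPM in stage B.

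Antioxidant genes summed to 15543 RPM in stage D and 9194 RPM in stage C, 1.69-fold higher and not called, on the way to 34245 RPM in stage E. Of 84 members 29 were higher and 21 lower. Catalase 2 (AT4G35090), which removes the peroxide of photorespiration, had 3932 RPM in stage D and 348 RPM in stage C, 11.3-fold higher (11.0 to 11.6), and 14102 RPM in stage E. Catalase 3 (AT1G20620) had 1362 RPM in stage D and 2787 RPM in stage C, and the 3 catalases together, at 7298 RPM in stage D and 3802 RPM in stage C, were not called. Glutathione S-transferases of the tau class were higher as a description of 27 genes, at 3301 RPM in stage D and 1539 RPM in stage C, 2.15-fold higher. GSTU21 (AT1G78360), on chromosome 1, was 33.7-fold higher (30.6 to 37.3), at 954 RPM in stage D and 28.3 RPM in stage C. GSTU18 (AT1G10360) had 1.22 RPM in stage D and 172 RPM in stage C, against 3.44 RPM in stage B. M-type thioredoxins, redox regulators of the chloroplast, summed to 1630 RPM in stage D and 251 RPM in stage C, 6.51-fold higher (6.28 to 6.74), with 291 RPM in stage B. Both members were higher: AT3G15360 had 1068 RPM in stage D and 69.3 RPM in stage C, and AT1G03680 had 562 RPM in stage D and 181 RPM in stage C. Peroxidases, with 8 of 56 higher and 11 lower, summed to 2275 RPM in stage D and 1491 RPM in stage C.

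Heat shock proteins summed to 6371 RPM in stage D and 10446 RPM in stage C, 1.64-fold lower and not called, with 24 of 115 lower and 14 higher. The description of 16 numbered heat shock proteins was lower, at 1837 RPM in stage D and 5265 RPM in stage C, 2.87-fold, with 4232 RPM in stage B. HSP70B (AT1G16030), a stress-induced chaperone, had 13.4 RPM in stage D and 1353 RPM in stage C, a fall of between 88.2-fold and 116-fold by its interval, but 19.4 RPM in stage B. HSP90.1 (AT5G52640) had 255 RPM in stage D, 1378 RPM in stage C and 432 RPM in stage B. A small heat shock-like chaperone on chromosome 4 (AT4G21870) was 24.8-fold higher, at 69.5 RPM in stage D and 2.80 RPM in stage C.

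Signalling and trafficking genes gave mostly single-locus calls. Receptor kinases had 54 of 178 members lower and 27 higher, with sums of 3344 RPM in stage D and 3616 RPM in stage C. Calcium signalling genes had 40 of 105 lower and 13 higher, with sums of 4727 RPM in stage D and 6305 RPM in stage C. The exception on the sum was the calcium-dependent protein kinases, whose description of 27 genes had 712 RPM in stage D and 2009 RPM in stage C, 2.82-fold lower, with 1080 RPM in stage B. CPK1 by its description (AT1G18890) had 13.4 RPM in stage D, 325 RPM in stage C and 23.7 RPM in stage B. RAC and ROP GTPases, switches of cell polarity and wall growth, had 11 of 22 lower and 1 higher, and summed to 543 RPM in stage D and 1284 RPM in stage C, 2.37-fold lower (2.31 to 2.43), with 1122 RPM in stage B. Secretion genes summed to 3178 RPM in stage D and 3269 RPM in stage C, and Rab GTPases and coats to 6961 RPM in stage D and 8997 RPM in stage C. The syntaxin SYP111 (AT1G08560), which fuses vesicles at the forming cell plate, was among those lower, at 5.99 RPM in stage D, 41.9 RPM in stage C and 94.0 RPM in stage B. Pentatricopeptide repeat proteins, which process organelle RNA, had 57 of 239 higher and 13 lower than in stage C, but 5 higher and 86 lower than in stage B, against 10.5% and 19.5% of all genes. They summed to 4294 RPM in stage D, 2789 RPM in stage C and 6046 RPM in stage B, so the direction turned with the reference. Senescence and storage genes summed to 542 RPM in stage D and 511 RPM in stage C.

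Among single genes called alike on their description sum and against stage B, a regulator of systemic acquired resistance rose most. This NIMIN-1-related gene (AT4G01895) is alone in its description, so its sum is the gene itself and adds no check. It had 2306 RPM in stage D and 0.910 RPM in stage C, a value of 13 reads, 2534-fold higher (1482 to 4760). It had 8.76 RPM in stage A, 33.0 RPM in stage B and 444 in stage E, so stage C was the lowest of the series and stage D the highest. The gene oxidative stress 3 (AT5G56550), also alone in its description, had 234 RPM in stage D and 0.770 RPM in stage C, 11 reads, with 11.7 RPM in stage B and 319 in stage E. The oxygenase AT1G04380, of the 2-oxoglutarate family that includes many hormone and flavonoid enzymes, was 182-fold higher (133 to 256), at 497 RPM in stage D and 2.73 RPM in stage C. Its description of 76 genes summed to 6519 RPM in stage D and 1613 RPM in stage C, 4.04-fold higher. The remorins AT3G61260 and AT5G23750, membrane scaffold proteins, had 109 and 144 RPM in stage D and 1.47 and 3.71 RPM in stage C, and their description of 12 genes summed to 463 RPM in stage D and 125 RPM in stage C. TBL21 (AT5G15890), of a family that acetylates wall polymers, had 279 RPM in stage D and 2.59 RPM in stage C, with 105 RPM in stage B, and its family of 34 summed to 1229 RPM in stage D and 355 RPM in stage C. The LEA protein AT1G17620 had 63.7 RPM in stage D and 0 reads in stage C, at least 303-fold higher.

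The 15 genes of this kind that fell most were histone and ribosomal protein genes. AT1G08880, a histone locus, had 3.24 RPM in stage D and 2018 RPM in stage C, 623-fold lower (476 to 832), with 51.2 RPM in stage B. The gene described as ribosomal protein large subunit 16A (AT2G42740) had 1.77 RPM in stage D and 479 RPM in stage C, 270-fold lower, with 7.01 RPM in stage B. Summed with the L27 gene of its description and 3 ribosomal L5P family genes, it gave 485 RPM in stage D and 1158 RPM in stage C, 2.39-fold lower. Within that sum the L5P gene AT4G01310 had 334 RPM in stage D and 512 RPM in stage C and was not called. AT5G45775 was lower, at 24.4 RPM in stage D and 93.4 RPM in stage C. AT3G58700 went the other way without being called, at 114 RPM in stage D and 57.8 RPM in stage C, with 487 RPM in stage B.

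Descriptions can themselves split a family, so the 30 named descriptions with the largest changes were also summed with their related descriptions. Of the 15 higher ones 12 kept the call and 3 lost it, and of the 15 lower ones 10 kept it and 5 lost it. The BTB and TAZ, CYP707A, ROTUNDIFOLIA-like and M-type thioredoxin descriptions gained no gene this way, so their calls could not change. Both histone descriptions among the 30 fell into the same sum of 47 genes and were counted separately. BTB and TAZ proteins, scaffolds of ubiquitin ligases, summed to 1127 RPM in stage D and 80.8 RPM in stage C, 13.9-fold higher (13.1 to 14.8), with 149 RPM in stage B. ROTUNDIFOLIA-like peptides, which limit leaf cell proliferation, had 5 of 6 genes higher and summed to 455 RPM in stage D and 62.3 RPM in stage C, 7.31-fold higher (6.82 to 7.84), with 80.1 RPM in stage B. LEA hydroxyproline-rich proteins, with 7 of 16 higher, summed to 1139 RPM in stage D and 318 RPM in stage C, 3.58-fold higher. C1 domain proteins, at 505 RPM in stage D and 57.6 RPM in stage C, and hyaluronan or mRNA binding proteins, at 581 RPM in stage D and 68.2 RPM in stage C, were higher than in stage C but had 514 and 1128 RPM in stage B. Among those lost, a receptor-like kinase description was 70.4-fold higher on 3 genes, but the wider family of 41 had 997 RPM in stage D and 789 RPM in stage C. A 14-3-3 description was 35.9-fold lower on 2 genes, while all 13 such phosphoprotein-binding genes had 1268 RPM in stage D and 1752 RPM in stage C. Ran GTPases, which carry proteins into the nucleus, were 23.1-fold lower as a pair and 2.10-fold lower (2.04 to 2.15) once RAN3 (AT5G55190) was added, with 489 RPM in stage D and 256 RPM in stage C. S-adenosylmethionine synthetases, the source of methyl groups and of ethylene, were 9.95-fold lower as a pair and 2.65-fold lower (2.58 to 2.73) over all 4, with 624 RPM in stage B. Zinc-finger proteins named after a repressor of monoamine oxidase A kept a 9.15-fold lower sum (7.74 to 10.9), at 9.47 RPM in stage D and 86.7 RPM in stage C, with 215 RPM in stage B.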

How the data were processed

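Poly(A) RNA of 5 leaf stages was sequenced from random-hexamer cDNA of about 200 bp, per the labels' protocols. The labels speak of 2 lanes per stage, called biological replicates there, but the deposited table has 1 column per stage, so no spread between replicates can be had and no count test was run. Per the file headers the values are RPKM. The deposited values themselves are RPM made by the authors: in each stage 100% were whole multiples of 1 step, within 0.001 reads, and that step gave the reads behind each column. The aligner, the assembly and the treatment of multiply matching reads were not given in the sources used here. Every column of values belongs to 1 stage, and 0 columns stayed unmapped.

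Genes that never reached 1 RPM were not tested (18165 of 18327 remained). Genes were put in 1 family when their descriptions were equal after removal of closing numbers and letters: 5772 in all, 2315 with 2 or more genes. Sums and exact 95% Clopper-Pearson intervals were computed from the recovered reads with Python 3.11.15, numpy 2.4.6, pandas 2.3.3 and scipy 1.17.1, and plots with matplotlib 3.10.9. A fold against 0 reads uses a floor of 3 reads per library. The shares on the lowest-numbered locus used families with at least 50 reads in each of stages B, C and D.

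The comparison, the gene lists and the rule for named genes were chosen with earlier results of these data known. Words that found unrelated descriptions were trimmed, and the wider families chosen, after values were seen. The lists overlap in part. The rule takes every member of lists with up to 15 measured genes, otherwise the 3 called members that rose most, the 3 that fell most and the 2 with the highest level. It also takes the 15 named families of 2 or more genes, reaching 50 RPM, and the 15 single genes that rose most and fell most, the single genes being called alike on the family sum and against stage B. The text names a part of these, and a few other members of a described family were named after their values were seen. Alternatives were pseudocounts of 0.1 and 5 RPM, no minimum or 20 RPM, a 4-fold rule, median-of-ratios scaling, whole intervals past 2-fold, other family definitions, leaving out chromosome 1, and stage B as the reference. The calls were tried before use on simulated reads with counting error only. Those reads held no tilt along the loci and no spread between libraries, so the trial cannot speak to either.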

Additional observations from a re-analysis of the deposited data

How the results depend on the processing

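No paired analysis was possible because each stage has 1 library, and for the same reason none could be left out in turn. Single genes, 3166 higher and 3546 lower in stage D, became 2046 and 2273 with a minimum of 20 RPM, and 1174 and 1636 with a 4-fold rule. They became 502 and 525 among genes alone in their description, and 2709 and 2032 without loci of chromosome 1. Counts within 1.5 times of the first came from pseudocounts of 0.1 RPM (3328 and 3716) and 5 RPM (2427 and 2845), from no minimum (3739 and 4239), from median-of-ratios scaling (3498 and 3404) and from whole intervals past 2-fold (2690 and 3116). Description sums, 761 higher and 860 lower, became 241 and 277 with the 4-fold rule, 259 and 335 over descriptions of 2 or more genes, and 839 and 543 without chromosome 1. With descriptions exactly as deposited, which hold fewer genes each, they became 1574 and 1846. List sums, 6 higher and 6 lower, became 1 and 2 with the 4-fold rule and 12 and 10 against stage B. No called list sum changed sign under the other settings except the mesophyll and meristem markers, at -0.16 without their highest member. Of 318 calls among the named genes, 64 were lost with the 4-fold rule, 77 with the 20 RPM minimum, 19 with the pseudocount of 5 RPM, 9 with whole intervals and 1 with scaling, and none changed sign. The difference in the median share on the lowest-numbered locus, stage D minus stage C, was -19.3 percentage points, -20.7 in families of exactly 2 genes and -18.4 with at least 500 reads per stage. The causes were not tested. At these depths 3 reads are 0.183 RPM in stage D and 0.210 RPM in stage C, so genes under a few RPM carry wide intervals.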

Other observations

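Nitrogen and inositol metabolism lay outside the gene lists above and were picked after their values were seen. Myo-inositol oxygenases, which turn inositol into a wall sugar precursor, had 4 of 4 genes higher in stage D. The description summed to 5026 RPM in stage D and 955 RPM in stage C, with 566 RPM in stage B. The members were spread over chromosomes 1, 2, 4 and 5: AT1G14520 had 2014 RPM in stage D and 509 RPM in stage C, AT2G19800 had 724 RPM in stage D and 240 RPM in stage C, AT4G26260 had 1843 RPM in stage D and 120 RPM in stage C, and AT5G56640 had 445 RPM in stage D and 86.4 RPM in stage C. Nitrate reductases, which start nitrate assimilation, summed to 3578 RPM in stage D and 1393 RPM in stage C, and glutamate synthases, which complete it, to 3772 RPM in stage D and 1248 RPM in stage C. In stage B these had 1519 and 310 RPM. 2-phosphoglycolate phosphatases, which open photorespiration, summed to 2610 RPM in stage D, 783 RPM in stage C and 306 RPM in stage B.

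Some descriptions with lower sums, picked after their values were seen from the 335 lower sums of 2 or more genes, were also outside the lists. Actins summed to 465 RPM in stage D and 1451 RPM in stage C over 9 genes, with 519 RPM in stage B. Callose synthases, at 132 RPM in stage D and 911 RPM in stage C, had 301 RPM in stage B. TCP-1 chaperonins, which fold tubulin and actin, summed to 2619 RPM in stage D and 5445 RPM in stage C over 13 genes, close to the 5675 RPM of stage B. ADP/ATP carriers of the mitochondrion summed to 461 RPM in stage D and 1776 RPM in stage C, with 861 RPM in stage B.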
